A study of Mus musculus with 6 samples.

Results

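The nuclear genes of respiratory complexes II to V were compared between cardiomyocyte areas with high and low Atf3 in hearts with a defect of complex I. The set was taken by name from the table of 17145 genes: every protein-coding gene whose symbol begins with Sdh, Uqcr, Atp5 or Cox, with *Cyc1* and *Cycs*, but without the paired isoform genes *Cox4i1*, *Cox4i2*, *Cox6a1*, *Cox6a2*, *Cox7a1*, *Cox7a2*, *Cox7a2l*, *Cox8a* and *Cox8b*. It held 48 genes, of which 46 had 10 or more UMIs over the 6 libraries and were tested. The other members, *Uqcrc2* and *Cox6b2*, had 1 UMI each. *Cox5a*, *Cox11*, *Cox16*, *Cox20*, *Cox7b2* and *Cox8c* also bear such names but are not among the 17145 genes, so they could not be tested.

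All 6 libraries came from fresh-frozen heart sections of FS6KD mice, which carry a gene trap in both copies of *Ndufs6*, a complex I subunit, on a mixed C57BL/6J and 129/Ola background. The knockdown is strongest in the heart and is shared by both groups, so no wild-type tissue enters these comparisons. The groups, Atf3_high and Atf3_low, with 3 libraries each, differ in the intensity of anti-Atf3 staining by which areas were picked for irradiation within clusters of Atf3-positive nuclei. The labels give heart, cardiomyocytes and female for all of them, and no age. In photo-isolation chemistry, mRNA is reverse transcribed inside the section with primers that carry a light-sensitive cage, and only cDNA from areas exposed to ultraviolet light is amplified. A UMI is a random tag that lets the copies of 1 cDNA molecule be counted once. In tissue taken by area, fewer cardiomyocytes and less RNA per cardiomyocyte cannot be told apart.

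Complex II (succinate dehydrogenase) passes electrons from succinate to coenzyme Q, complex III passes them on to cytochrome c, and complex IV hands them to oxygen. Complexes III and IV pump protons, and complex V, the ATP synthase, lets the protons flow back through a ring in its membrane part (Fo) to turn a central stalk inside its catalytic head (F1). The heart depends on this chain for most of its ATP. Most subunits are encoded in the nucleus, and cytochrome b of complex III, the core subunits of complex IV and part of Fo come from mitochondrial DNA.

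The libraries held from 81117 to 210588 UMIs on genes, and 1 UMI was worth from 4.75 to 12.3 CPM of the library total. Atf3_high replicate 2, the shallowest, went against its female label, with 8 UMIs of *Ddx3y* and 8 of *Eif2s3y*, both on the Y chromosome, and 0 of *Xist*, so the main values are also given without it. *Ndufs6* had 2, 0 and 3 UMIs in Atf3_high replicates 1, 2 and 3 and 0 in each Atf3_low library. *Atf3* mRNA had 50, 7 and 25 UMIs in Atf3_high and 35, 0 and 8 in Atf3_low, with a log2 fold change of 0.40 ± 0.65 (SE), so the areas picked by protein staining did not separate by this mRNA. All 10 cardiomyocyte markers examined had UMIs. Their summed share ran from 2.51% to 4.67% in Atf3_high and from 3.98% to 5.53% in Atf3_low, and all 10 had a log2 fold change below 0, with a median of −0.56. Of 8 fibroblast markers, 7 were above 0 (median 0.83), and their summed share ran from 0.204% to 0.596% in Atf3_high and from 0.136% to 0.240% in Atf3_low. Of 7 mural cell markers tested, 6 were above 0 (median 0.72), and the endothelial and macrophage medians were 0.07 and −0.08. The part of these differences in the results below was not tested.

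Promoters are shown for 4 members, all with a log2 fold change below 0. They are from RefSeq on GRCm38.p6, each from 250 bases before to 50 after the transcription start and written along the gene's own strand. Capitals mark matches, on either strand, to 5 short motifs of factors known to act on mitochondrial genes or to belong to the family of Atf3. The motifs were the NRF1 core GCATGCG, the ETS core CCGGAAG, the ERR motif AAGGTCA, the ATF and CREB motif TGACGT and the YY1 core AAGATGG. *Atp5g3* lies on the minus strand (window chr2:73911277-73911576), *Atp5b* on the plus strand (chr10:128083057-128083356), *Uqcrfs1* on the minus strand (chr13:30545267-30545566) and *Cycs* on the minus strand (chr6:50566520-50566819).
Atp5g3: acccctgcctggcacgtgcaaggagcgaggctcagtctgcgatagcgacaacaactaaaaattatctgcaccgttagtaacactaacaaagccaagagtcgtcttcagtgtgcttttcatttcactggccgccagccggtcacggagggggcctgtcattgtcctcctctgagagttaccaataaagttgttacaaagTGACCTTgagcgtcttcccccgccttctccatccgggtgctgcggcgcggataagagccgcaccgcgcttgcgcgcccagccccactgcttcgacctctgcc
Atp5b: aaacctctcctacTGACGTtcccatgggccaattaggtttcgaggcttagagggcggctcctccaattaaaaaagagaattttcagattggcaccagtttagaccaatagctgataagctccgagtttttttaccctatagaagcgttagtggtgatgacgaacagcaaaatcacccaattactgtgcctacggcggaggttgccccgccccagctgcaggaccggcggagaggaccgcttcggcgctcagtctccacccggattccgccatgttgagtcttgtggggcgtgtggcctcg
Uqcrfs1: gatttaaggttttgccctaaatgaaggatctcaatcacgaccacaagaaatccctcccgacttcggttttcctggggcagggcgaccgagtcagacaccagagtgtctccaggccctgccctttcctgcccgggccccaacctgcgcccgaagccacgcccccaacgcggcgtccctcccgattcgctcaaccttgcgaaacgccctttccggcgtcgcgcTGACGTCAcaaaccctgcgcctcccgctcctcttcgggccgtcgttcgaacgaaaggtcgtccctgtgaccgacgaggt
Cycs: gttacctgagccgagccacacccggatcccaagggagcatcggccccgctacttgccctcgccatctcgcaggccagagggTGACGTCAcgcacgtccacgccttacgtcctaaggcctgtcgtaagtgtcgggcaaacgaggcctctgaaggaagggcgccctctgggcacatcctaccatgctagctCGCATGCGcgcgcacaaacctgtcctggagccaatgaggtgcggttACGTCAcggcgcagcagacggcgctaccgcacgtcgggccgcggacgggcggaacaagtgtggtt

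In *Atp5g3*, the capitals are an ERR motif read on the other strand that begins at position −52 from the start, and in *Atp5b* an ATF and CREB motif at −237. *Uqcrfs1* and *Cycs* each hold the whole palindrome TGACGTCA, in which the ATF and CREB motif is met on both strands, at −29 and −169. *Cycs* also holds an NRF1 core at −61 and a further ATF and CREB motif at −15. Windows were found for 37 of the 48 members, 40 windows in all. The ETS core was in 42.5% of member windows, compared with 8.86% of all 32851 windows and 17.9% of those of genes tested. The NRF1 core was in 20% of member windows, compared with 3.58% of all and 6.41% of those of genes tested. The ATF and CREB motif was in 15% of member windows, 7.51% of all and 12.2% of those of genes tested. For the whole palindrome these shares were 5%, 1.79% and 3.26%. Of members not shown, *Cox14*, above 0, holds an ATF and CREB motif at −125, and the windows of *Atp5d*, also above 0, hold no match. The ERR motif was in 12.5%, 4.72% and 3.18% of these windows, and the YY1 core in 12.5%, 6.34% and 7.42%. The 6 members with an ATF and CREB motif (*Atp5b*, *Atp5md*, *Cox14*, *Cox6b1*, *Cycs* and *Uqcrfs1*) had log2 fold changes on both sides of 0, with 4 of the 6 below it. These matches describe letters only.

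Taken by sign, most of the set lay lower in Atf3_high, but no single gene passed the test. Of the 46 genes tested, 31 (67.4%) had a log2 fold change below 0, while 44.8% of the 7665 genes tested did. The median of the members was −0.26, and that of all genes was 0.11. None of the members passed an adjusted p of 0.05 (smallest adjusted p = 0.854, edgeR's quasi-likelihood test), at a background of 0.0913% of all genes in either direction. At an unadjusted p under 0.05, 1 member (2.24% of all genes in the lower direction) was lower and 0 were higher (3.55% of all genes), and this was *Atp5a1*. With DESeq2, 0 members passed an adjusted p of 0.05 and 2 had an unadjusted p under 0.05, where 249 of all 7665 genes (3.25%) did in either direction. On TMM-scaled CPM, non-overlapping libraries were found in 2 members lower in Atf3_high, *Atp5g3* and *Cycs* (3.89% of all genes), and in 1 higher, *Cox14* (7.07% of all genes). Scaled by library size alone, the members' median was −0.05 and that of all genes 0.31, and 26 of 46 (56.5%) were below 0. Without Atf3_high replicate 2 the median was −0.17, with 32 of 46 below 0. No member then had an unadjusted p under 0.05, where 4.48% of all genes tested did in either direction. Of the 31 members below 0, none came to 0 or above without that library, but 15 came nearer to 0 by over 1.5 times. Among them *Sdhb* went from −0.45 to −0.23, *Sdha* from −0.28 to −0.067, *Sdhc* from −0.29 to −0.096, *Uqcrq* from −0.35 to −0.18, *Atp5mpl* from −0.40 to −0.18 and *Atp5pb* from −0.36 to −0.14. Under at least 1 of the 15 alternatives, 16 of the 46 members changed sign.

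**Figure D1:**
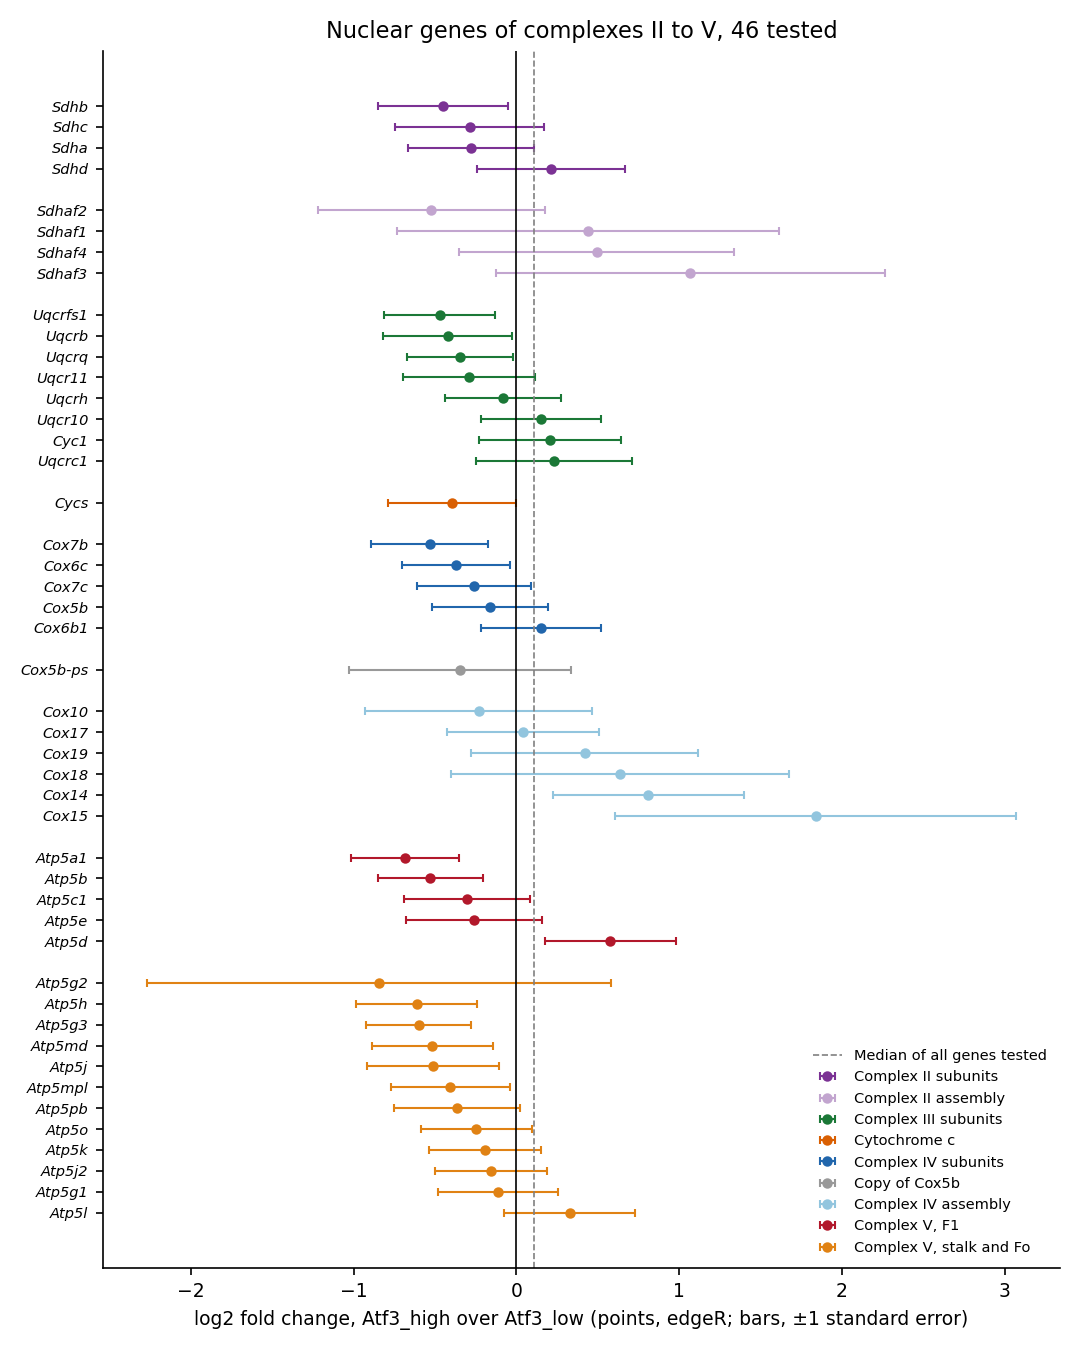
Log2 fold change of each of the 46 genes tested (x axis, Atf3_high over Atf3_low, edgeR), grouped by complex and role, with bars of 1 standard error. The dashed line is the median of all genes tested, 0.11. Of the 17 genes of complex V, 15 lie below 0, and 8 of the 10 assembly factors lie above it with wide bars.

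The sign went with depth. The 26 members with 500 or more UMIs included 23 (88.5%) below 0, with a median of −0.33, while of the 20 with fewer UMIs 8 were below 0. In the depth classes that begin at 10, 100 and 500 UMIs, the members' medians were 0.43, 0.13 and −0.33. All genes tested had medians of 0.15, 0.03 and −0.27 in these classes. Abundant genes outside these lists also leaned this way: of 105 other genes with 500 or more UMIs, after leaving out the members, complex I subunits and mitochondrially encoded genes, 73 (69.5%) were below 0, with a median of −0.20. The paired isoform genes were not among those left out, so the 105 may still hold genes of the respiratory chain. Standard errors ran from 0.32 to 0.40 in the members with 500 or more UMIs and from 0.68 to 1.43 in those under 100, so a member under 100 UMIs could differ by 1 log2 unit and not be told from no change. These depth classes were set after the values were seen.

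**Figure D2:**
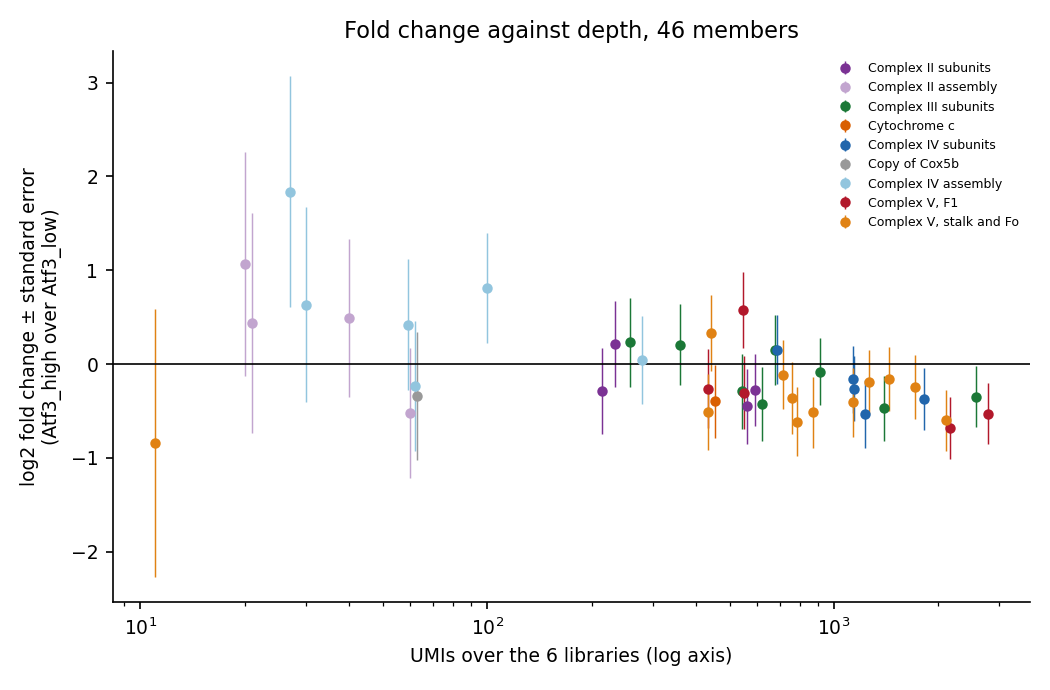
Log2 fold change of the 46 members (y axis, with 1 standard error) against their UMIs over the 6 libraries (x axis, log scale), coloured by role. The 10 members below 100 UMIs have standard errors of 0.68 or more, and 23 of the 26 at 500 or more lie below 0.

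Of the 17 genes of complex V, all of them subunits, 15 were below 0, with a median of −0.36. The subunits of complexes II, III and IV had medians of −0.28, −0.19 and −0.26, and the difference between complexes was not tested. In the F1 head and central stalk, 4 of 5 were below 0. *Atp5a1*, the alpha subunit, had 1911, 1557 and 2613 CPM in Atf3_high replicates 1, 2 and 3 and 3457, 2419 and 3909 CPM in Atf3_low. Only Atf3_high replicate 3 reached above the lowest Atf3_low library. This came to a log2 fold change of −0.68 ± 0.33 (SE), with an unadjusted p of 0.0461 and an adjusted p of 0.854 by edgeR's quasi-likelihood test. It was −0.54 without Atf3_high replicate 2, and ran from −0.91 to −0.47 over all alternatives.

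*Atp5b*, the catalytic beta subunit (chr10:128083273-128090391), held the most UMIs of any member, 2782 over the 6 libraries. It had 2505, 2402 and 3498 CPM in Atf3_high and 4097, 3020 and 5026 CPM in Atf3_low. Again Atf3_high replicate 3 alone lay among the Atf3_low values, and the log2 fold change was −0.53 ± 0.32 (SE; adjusted p = 0.964, edgeR's quasi-likelihood test). *Atp5c1* (gamma) and *Atp5e* (epsilon), parts of the central stalk, were at −0.30 and −0.26.

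*Atp5d*, the delta subunit of the same stalk (chr10:80138632-80145818), stood on the other side of 0. It had 534, 797 and 987 CPM in Atf3_high and 371, 425 and 776 CPM in Atf3_low, and the groups overlapped. Its log2 fold change was 0.58 ± 0.40 (SE; adjusted p = 0.965, edgeR's quasi-likelihood test), above 0 under all 15 alternatives, from 0.32 to 0.94. A ratio of UMIs taken within a library does not depend on the scaling between libraries. *Atp5d* UMIs per *Atp5b* UMI were 0.213, 0.332 and 0.282 in Atf3_high and 0.0905, 0.141 and 0.154 in Atf3_low, means of 0.276 ± 0.0596 and 0.129 ± 0.0337 (SD, n = 3), a ratio of means of 2.14. Each Atf3_high library was above each Atf3_low library. Against *Atp5a1* the means were 0.390 ± 0.117 and 0.161 ± 0.0476, a ratio of 2.43. Further pairs were computed. *Uqcrc1* per *Uqcrfs1* ran from 0.123 to 0.331 in Atf3_high and from 0.0592 to 0.228 in Atf3_low, so the groups overlapped. *Cox6b1* per *Cox7b* also overlapped, from 0.581 to 0.974 and from 0.268 to 0.815. *Atp5a1* per *Atp5b* did not, from 0.648 to 0.763 and from 0.778 to 0.844. All pairs were picked after their values were seen, so the ratios are descriptions with no test.

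In the outer stalk and the membrane part, 11 of 12 genes were below 0, with a median of −0.38. *Atp5g3* (chr2:73908447-73911326), 1 of 3 genes that encode the proton-carrying c ring, had 2093, 1919 and 2129 CPM in Atf3_high and 3598, 2745 and 2969 CPM in Atf3_low. The groups did not overlap, and the Atf3_high libraries lay close together, with a log2 fold change of −0.60 ± 0.32 (SE; adjusted p = 0.920, edgeR's quasi-likelihood test), and −0.57 without Atf3_high replicate 2. Of the other c ring genes, *Atp5g1*, with 714 UMIs, was at −0.11 ± 0.37 (SE). *Atp5g2* had 11 UMIs in all (−0.84 ± 1.43, SE) beside 43 UMIs of its copy *Gm10175*, and was at −0.058 with that copy added. The difference between the c ring genes was not tested.

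*Atp5h*, the d subunit of the outer stalk (chr11:115415689-115419962), had 661, 591 and 1034 CPM in Atf3_high and 1004, 1051 and 1471 CPM in Atf3_low. Only Atf3_high replicate 3 overlapped the other group. *Atp5h* was at −0.61 ± 0.37 (SE), and with the counts of its near-identical copies added (*Gm10250* and *Gm5051*, 178 and 1 UMIs) it was −0.63. *Atp5md*, a small Fo protein also called DAPIT, was at −0.52 ± 0.37 (SE), with 1138, 543 and 838 CPM in Atf3_high and 1557, 868 and 1199 CPM in Atf3_low. *Atp5j* (coupling factor F6), *Atp5mpl* and *Atp5pb* (subunit b of the outer stalk) were at −0.51, −0.40 and −0.36. The exception, *Atp5l* (subunit g), was at 0.33 ± 0.40 (SE) and at 0.14 with the counts of all genes of 95% transcript identity added, the largest being the pseudogene *Gm4045* (78 UMIs) and *Senp6* (70 UMIs), a gene of another family.

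**Figure D3:**
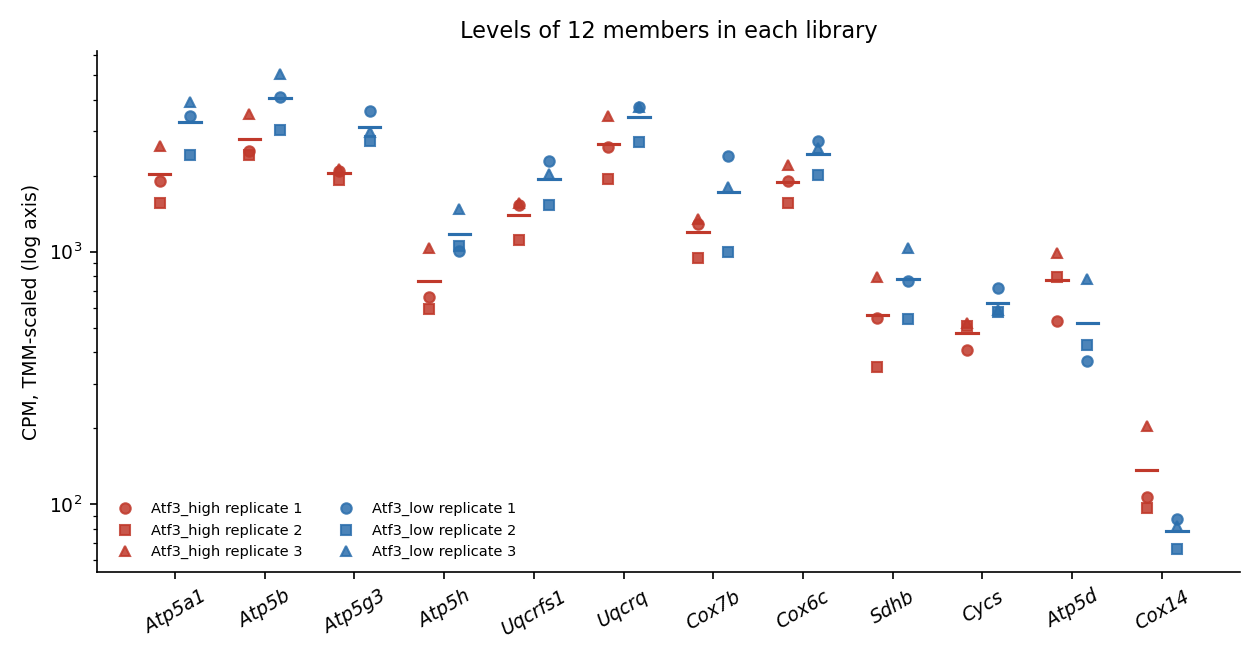
TMM-scaled CPM (y axis, log scale) of 12 members in each library, red for Atf3_high and blue for Atf3_low, with a marker shape for each replicate number and a bar at the group mean. *Atp5g3* and *Cycs* lie lower in all 3 Atf3_high libraries, *Cox14* lies higher, and the other genes overlap.

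In complex II, the 4 subunits had a median of −0.28, with 3 below 0. *Sdhb*, the iron-sulfur subunit (chr4:140961203-140979193), had 544, 350 and 797 CPM in Atf3_high and 768, 542 and 1035 CPM in Atf3_low. Atf3_high replicates 1 and 3 overlapped the other group. *Sdhb* was at −0.45 ± 0.40 (SE) on the log2 scale, with −0.28 ± 0.39 (SE) for *Sdha*, the flavoprotein, and −0.29 ± 0.46 (SE) for *Sdhc*, a membrane anchor. *Sdhd*, the other anchor, was at 0.21 ± 0.46 (SE). The 4 assembly factors had from 20 to 60 UMIs each. *Sdhaf3*, which helps to bring iron-sulfur clusters to *Sdhb*, had 11, 3 and 1 UMIs in Atf3_high and 2, 2 and 1 in Atf3_low (1.07 ± 1.19, SE). *Sdhaf2*, which serves the attachment of FAD to *Sdha*, was at −0.52 ± 0.70 (SE) and *Sdhaf4* at 0.49 ± 0.84 (SE), and *Sdhaf4* turned to −0.07 without Atf3_high replicate 1.

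In complex III, 5 of 8 subunits were below 0, with a median of −0.19. *Uqcrfs1*, the Rieske iron-sulfur protein (chr13:30540308-30545362), had 1524, 1110 and 1560 CPM in Atf3_high and 2278, 1527 and 2029 CPM in Atf3_low. Atf3_high replicate 3 lay just above the lowest Atf3_low library, and replicate 1 just below it. The log2 fold change was −0.47 ± 0.34 (SE; adjusted p = 0.969, edgeR's quasi-likelihood test). *Uqcrq*, a small subunit with 2570 UMIs (chr11:53427922-53430831), had 2596, 1943 and 3456 CPM in Atf3_high and 3733, 2728 and 3745 CPM in Atf3_low (−0.35 ± 0.33, SE). *Uqcrb*, which stands next to cytochrome b, was at −0.42 ± 0.39 (SE), a value that came to −0.0025 without Atf3_low replicate 1, the library with its highest level. *Uqcrc1* (core protein 1), *Cyc1* (cytochrome c1) and *Uqcr10* were at 0.23, 0.21 and 0.15, named because they are the complex III subunits above 0. Without Atf3_high replicate 3, *Uqcrc1* was at −0.28 and *Cyc1* at −0.15, and without Atf3_low replicate 3 they were at 0.71 and 0.63, so their sign rests on single libraries. *Uqcrc2*, the other core protein (chr7:120635176-120659524), had 1 UMI, in Atf3_high replicate 3. Its last 300 exonic bases, where this chemistry primes, lie wholly under exons of *Pdzd9* in the GENCODE annotation.

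*Cycs*, somatic cytochrome c, the carrier between complexes III and IV (chr6:50562563-50566538), had 406, 507 and 522 CPM in Atf3_high and 721, 576 and 586 CPM in Atf3_low. The groups did not overlap in these TMM-scaled values, and *Cycs* was at −0.40 ± 0.39 (SE; adjusted p = 0.996, edgeR's quasi-likelihood test). As a share of library UMIs the groups did overlap, with 0.0532% in Atf3_high replicate 3 and 0.0525% in Atf3_low replicate 3. Its near-identical copy *Gm10053* (99.9% identity of transcripts) had 207 UMIs beside the 453 of *Cycs*, and with the copies added the value was −0.38.

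In complex IV, 4 of the 5 subunits tested were below 0, with a median of −0.26. These 5 do not include *Cox5a* or the paired isoform genes, and the core subunits of this enzyme are mitochondrially encoded. *Cox7b*, a small subunit (chrX:106015700-106022450) had 1286, 941 and 1346 CPM in Atf3_high and 2392, 993 and 1798 CPM in Atf3_low. Atf3_low replicate 2 lay among the Atf3_high values, and the log2 fold change was −0.53 ± 0.36 (SE). It was −0.27 without Atf3_low replicate 1 and −0.86 without Atf3_low replicate 2. *Cox6c*, also a small subunit, had 1895, 1557 and 2208 CPM in Atf3_high and 2743, 2019 and 2574 CPM in Atf3_low (−0.37 ± 0.33, SE), and 48.3% of its last 300 exonic bases lie under exons of *Vps13b*. *Cox7c* was at −0.26 ± 0.35 (SE), and at −0.12 with its copies added, of which *Cox7c-ps1* alone had 244 UMIs. *Cox5b* was at −0.16, and *Cox5b-ps*, an annotated coding copy with 63 UMIs and 99.2% identity, at −0.34 ± 0.68 (SE). *Cox6b1*, which lies where cytochrome c docks, was the only subunit above 0, at 0.15 ± 0.37 (SE).

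The 6 assembly factors of complex IV had a median of 0.53, with 5 above 0, and from 27 to 280 UMIs. *Cox14*, which couples the making of the Cox1 protein to assembly (chr15:99725618-99728136), had 107, 96.5 and 205 CPM in Atf3_high and 87.6, 66.7 and 81.7 CPM in Atf3_low. The groups did not overlap, and the lowest Atf3_high value rests on 8 UMIs. The log2 fold change was 0.81 ± 0.59 (SE; adjusted p = 0.969, edgeR's quasi-likelihood test), and 0.37 without Atf3_high replicate 3, the library with the highest level. *Cox15*, heme A synthase, had the largest value of any member, 1.84 ± 1.23 (SE), and 20 of its 27 UMIs were in Atf3_high replicate 1, with 0 in Atf3_high replicate 2 and Atf3_low replicate 3. Its last 300 exonic bases lie wholly under exons of *Entpd7*. *Cox18*, which inserts Cox2 into the membrane, was at 0.63 ± 1.04 (SE), and between 0.096 (without Atf3_low replicate 1) and 2.96 (without Atf3_low replicate 2) with a library left out. *Cox17*, the copper chaperone and the best covered of them with 280 UMIs, was at 0.04 ± 0.47 (SE) and turned sign under 4 alternatives.

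Among the members, the medians of subunits and assembly factors were on opposite sides of 0. The subunits and cytochrome c, 35 genes, had a median of −0.29, with 28 below 0, and the 10 assembly factors had a median of 0.47, with 2 below 0. The assembly factors are also the thinly covered members, and the difference was not tested. Of all genes tested, 43.8% were below 0 in the depth class that begins at 10 UMIs, 46.6% in that from 100 and 77.4% in that from 500. Of 28 other genes tested that the name rule does not take (6 for complex III, 16 for IV and 6 for V), 18 were below 0. Most are assembly factors, but the list also holds *Ndufa4*, a complex IV subunit (−0.35), *Atpif1*, the inhibitor of the ATP synthase (−0.22), and *Lrpprc*. With 11 genes of coenzyme Q synthesis they made 39 other genes of complexes II to V, of which 23 were below 0, with a median of −0.20. None of the 39 passed an adjusted p of 0.05. *Coq3*, a methyltransferase of coenzyme Q synthesis, had 6, 1 and 2 UMIs in Atf3_high and 10, 7 and 6 in Atf3_low (−1.88 ± 0.92, SE; adjusted p = 0.833, edgeR's quasi-likelihood test). It was the only 1 of the 39 at an unadjusted p under 0.05, beside 2.24% of all genes in the lower direction. *Lrpprc*, which stabilises mitochondrial mRNA, had 26, 12 and 30 UMIs in Atf3_high and 13, 9 and 4 in Atf3_low (0.90 ± 0.59, SE).

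The members together took 3.69%, 3.31% and 4.39% of the UMIs in Atf3_high and 4.26%, 3.62% and 4.53% in Atf3_low (95% Wilson intervals at most 0.285 points wide, counting error only). The group means were 3.80% ± 0.548 and 4.14% ± 0.468 (SD, n = 3), and the groups overlapped. Within the members, the mean share of each complex differed between the groups by less than the larger SD. Complex V took 52.5% ± 2.62 in Atf3_high and 54.5% ± 2.22 in Atf3_low, complex III 21.6% ± 0.958 and 20.7% ± 0.819, complex IV 19.6% ± 1.53 and 18.5% ± 0.925, and complex II 5.01% ± 1.17 and 4.90% ± 0.705 (SD, n = 3).

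The mitochondrially encoded subunits of complexes III to V separated the groups where the nuclear ones did not. They took 6.04% ± 0.223 of the UMIs in Atf3_high and 7.93% ± 0.640 in Atf3_low (SD, n = 3), with 6.28% in the highest Atf3_high library and 7.21% in the lowest Atf3_low library. All 5 of these genes tested were below 0, with a median of −0.62, beside 44.8% of all genes tested and 77.4% of those with 500 or more UMIs. At an unadjusted p under 0.05, 3 of the 5 were lower, beside 2.24% of all genes. Nuclear copies of mitochondrial DNA can share reads with the mitochondrially encoded genes, which leaves their values uncertain. *mt-Co2* was at −0.72 ± 0.28 (SE), *mt-Atp6* at −0.68 ± 0.31 (SE) and *mt-Cytb* at −0.62 ± 0.27 (SE), and none passed an adjusted p of 0.05 (smallest adjusted p = 0.696, edgeR's quasi-likelihood test). For each UMI of these genes there were 0.631, 0.527 and 0.732 UMIs of the nuclear members in Atf3_high and 0.522, 0.502 and 0.538 in Atf3_low. Atf3_high replicate 2 lay among the Atf3_low libraries in this ratio. The 34 subunits of complex I tested had a median of −0.29, with 28 below 0, and the difference between the complexes was not tested.

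**Figure D4:**
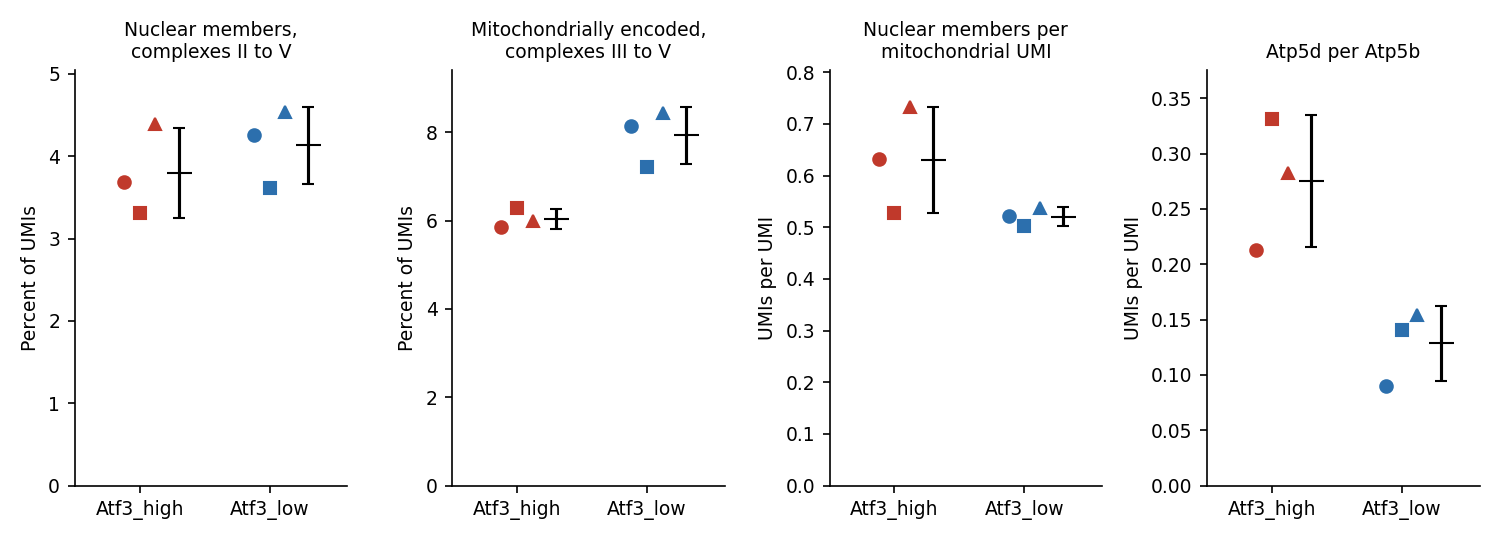
From left to right, the share of UMIs in the nuclear members, the share in mitochondrially encoded subunits of complexes III to V, the nuclear UMIs per mitochondrial UMI, and the *Atp5d* UMIs per *Atp5b* UMI (y axes) in each library, with replicates 1, 2 and 3 as circle, square and triangle, and the group mean ± SD in black. The groups do not overlap in the second and the last panel.

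Over 15 alternatives the members' median stayed below 0, between −0.42 (without Atf3_high replicate 3) and −0.05 (library size scaling), and always below the median of all genes, by 0.23 to 0.53. This background was not matched for depth: of the 7665 genes tested, 6641 had fewer than 100 UMIs. In none of them did a member pass an adjusted p of 0.05.

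**Figure D5:**
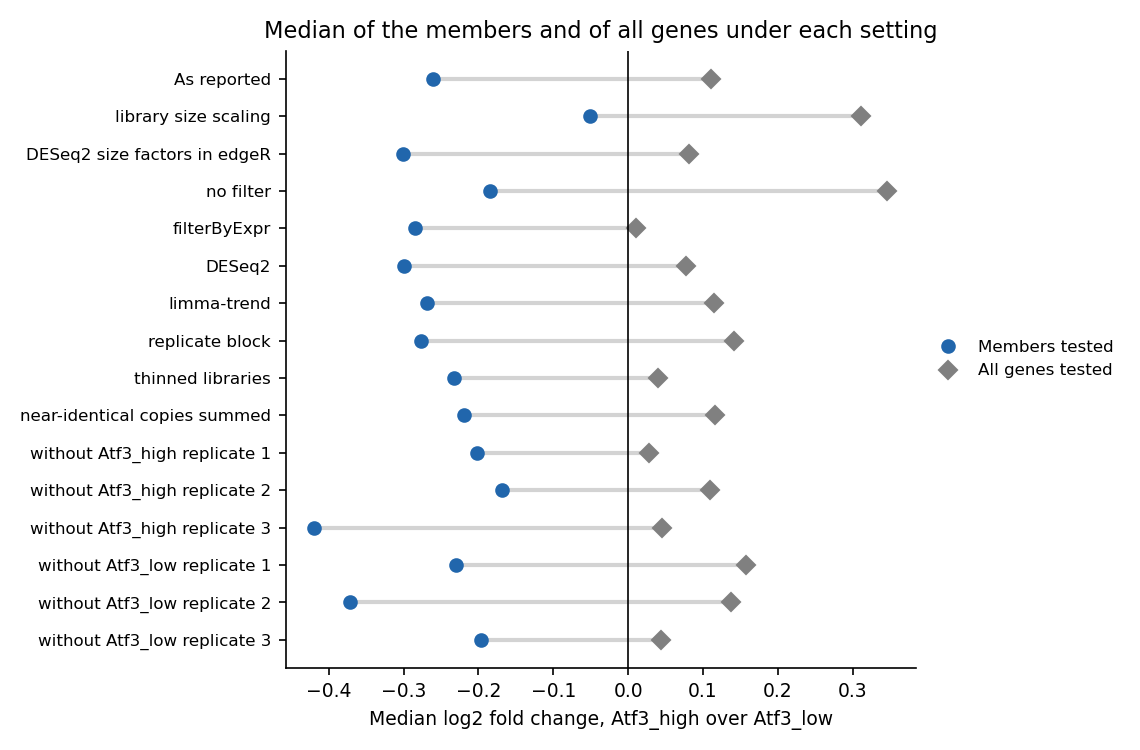
Median log2 fold change (x axis) of the members tested (blue circles) and of all genes tested (grey diamonds) as reported and under 15 alternatives (y axis). The members lie below 0 and to the left of all genes in each row, and come nearest to 0 when libraries are scaled by size alone (−0.05).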

How the data were processed

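Photo-isolation chemistry libraries of 3 Atf3_high and 3 Atf3_low areas were made by the CEL-seq2 method, which tags the 3′ end of each mRNA, so a count needs no scaling by transcript length. The study gives them as biological replicates; the labels do not say which areas share a mouse, and p-values measure the spread between these libraries. The authors aligned the reads by HISAT2 (2.1.0) to the GRCm38 genome, and UMI-tools (1.0.0) and featureCounts (1.6.4) are named in the submitters' processing notes. The strand setting and the treatment of reads with several matches are not given in the sources used here. The deposited values are raw counts of UMIs per gene, 81117 to 210588 per library.

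Members and lists were chosen with earlier results of these data known. Genes with 10 or more UMIs in total were scaled by TMM and tested in edgeR (version 4.0.16, R 4.3.3) with glmQLFit and glmQLFTest, without covariates, with Benjamini-Hochberg adjustment over all 7665 genes; the common biological coefficient of variation was 53.6%. CPM are of TMM-scaled libraries. Positions are from GENCODE M21. Near-identical copies were transcripts with 95% identity over 200 bases or more (BLAST+ 2.17.0). Genes named are, per role, the 3 of smallest p and the one with most UMIs, any at an unadjusted p under 0.05, and the 3 of largest log2 fold change; complex II was split into subunits and assembly factors. *Uqcrc1*, *Cyc1*, *Uqcr10*, *Sdhd*, *Cox5b*, *Cox6b1*, *Atp5l*, *Atp5g1*, *Atp5c1*, *Atp5e*, *Atp5j*, *Atp5mpl*, *Atp5pb*, *Coq3*, *Ndufa4*, *Atpif1* and *Lrpprc*, and the palindrome TGACGTCA, were named after their values were seen. The script was tested on simulated data. Alternatives were other scalings and filters, DESeq2 (1.42.0), limma-trend (limma 3.58.1, prior count 2), a replicate block, thinning to 81117 UMIs, summed copies and leaving out each library.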

Additional observations from a re-analysis of the deposited data

How the results depend on the processing

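Over the 15 alternatives, 0 members passed an adjusted p of 0.05 (10 had no adjusted p in DESeq2), and the count below 0 stayed within 1.5 times 31. The count at an unadjusted p under 0.05, 1 as reported, was 0 with library size scaling and with no filter, 2 with filterByExpr, DESeq2 and thinned libraries (*Atp5g3* and *Atp5a1* each time), and from 0 to 3 when a library was left out: 0 without Atf3_high replicate 1 or 2 or Atf3_low replicate 1 or 3, and 3 without Atf3_high replicate 3 or Atf3_low replicate 2. With the replicate block it was 3 (*Atp5g3*, *Atp5a1* and *Atp5h*), and the members' median was −0.28. With this block 24 of all genes passed an adjusted p of 0.05, compared with 7 without it. Of all genes tested, 5.79% had an unadjusted p under 0.05 in either direction as reported and 4.81% with the replicate block. These shares were 6.71% with library size scaling, 3.63% with no filter, 5.99% with filterByExpr, 3.25% with DESeq2 and 5.60% with thinned libraries. Leaving out a library gave 4.27% to 6.79%, with 6.77% without Atf3_high replicate 3 and 5.73% without Atf3_low replicate 2. Same-numbered libraries deviated together with correlations of 0.0851, 8.76e-04 and 0.0656 over all genes, and of 0.408, −0.00443 and 0.369 over the members. Atf3_high replicates 1 and 3 correlated best with their own number and Atf3_high replicate 2 did not, so the numbers were not taken as pairs. The replicates numbered 2 also differed in *Ddx3y*, *Eif2s3y* and *Xist*, with 8, 8 and 0 UMIs in Atf3_high and 0, 0 and 13 in Atf3_low. The study names a pairwise two-tailed t test for these groups. Pairing of replicates 1 and 3 alone was not tested. Of the 46 members, 16 turned sign under at least 1 alternative, 13 of them with a library left out. Among the genes the naming rule took, these were *Cox17* (0.04) to −0.054 when thinned and between −0.31 and 0.40 with a library left out, *Sdhaf4* to −0.071 (range to 0.83) and *Cox5b-ps* to 0.16 (range from −0.77) with a library left out. The cause was not tested. Depth limits the members under 100 UMIs most.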
